A study of Mus musculus with 48 samples.

Results

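Transcript levels of 10 genes of the unfolded protein response were followed across punches of the right amygdala of 48 female mice. The genes were Hspa5, Hsp90b1, Xbp1, Atf4, Atf6, Ddit3, Calr, Pdia4, Dnajb9 and Herpud1. They were chosen by symbol, each symbol was matched to 1 gene ID, and they made up 10 of the 52636 genes listed. The mice belonged to the C57BL/6NTac-Brd1 line (C57BL/6NTac-Brd1tm1.2Arte/AborgMmucd) and were 8 to 11 weeks old. They were WT or heterozygous Brd1+/- mice, matched by litter, of a line with a targeted deletion made with loxP sites around exons 3 to 5 of Brd1, a gene for a chromatin-associated scaffold protein. Mice of each genotype received subcutaneous injections on 2 days of saline vehicle, the tricyclic antidepressant imipramine (IMN, 10 mg/kg) or the selective serotonin reuptake inhibitor fluoxetine (FLX, 5 mg/kg). This gave 6 groups of 8 mice: WT vehicle, WT IMN, WT FLX, Brd1+/- vehicle, Brd1+/- IMN and Brd1+/- FLX. All mice, controls included, had been through a tail suspension test, an open field test and a forced swim test by the time the tissue was taken, 1 hour after the swim. The study asked how reduced Brd1 expression and antidepressants alter brain gene expression.

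The unfolded protein response is the programme by which a cell adjusts the folding capacity of its endoplasmic reticulum (ER). Sensors in the ER membrane start it along parallel branches: IRE1 splices the Xbp1 transcript, PERK slows translation while favouring that of Atf4, and ATF6 is cut to release a transcription factor. The factors made in this way raise the transcripts of ER chaperones, disulfide isomerases and degradation components, and under lasting stress that of Ddit3. In the brain, secretory cells such as the epithelium of the choroid plexus rely heavily on ER folding. Splicing of Xbp1, translation of Atf4 and cleavage of ATF6 do not appear in a gene's total transcript level, which is what was measured here.

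Levels are given in TPM, a share of the transcripts of a library scaled by gene length and with the same total in every library, so that levels of different genes can be set side by side within this scale. TPM keeps no sequencing depth, so the depth behind each value is unknown, and the spread between mice is the error that can be given. Brd1 itself was lower in Brd1+/- mice under each treatment. It had a mean of 35.6 TPM ± 5.09 (SD, n = 8) in WT vehicle and 25.95 TPM ± 2.90 in Brd1+/- vehicle mice, 36.9 TPM ± 2.83 and 23.35 TPM ± 4.84 under IMN, and 32.95 TPM ± 4.45 and 23.5 TPM ± 3.49 under FLX. The adjusted limma p-values of these differences, from the tests described below, were 0.0512, 0.102 and 0.0362. A whole-gene TPM also counts reads outside the removed exons.

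The libraries differed in the tissue they held. The neuronal gene Snap25 was listed at 883.1 TPM or more in every library, while Rspo2, which marks principal neurons of the basolateral amygdala, ran from 0.0818 to 31.4 TPM with a median of 1.45 TPM. The summed level of 6 markers of striatal projection neurons, with Drd1, Drd2 and Adora2a among them, ran from 101.1 to 7290 TPM and reached 1000 TPM in 13 of 48 libraries, between 1 and 3 in each group. The sum of 7 choroid plexus markers (Ttr, Folr1, Kl, Clic6, Aqp1, Kcnj13 and Otx2) ran from 8.77 to 29710 TPM and reached 1000 TPM in 9 libraries, 1 in each WT group and 2 in each Brd1+/- group. The sum of 6 oligodendrocyte markers ran from 641.8 to 16270 TPM, with group medians from 1830 TPM in WT vehicle to 5444 TPM in WT FLX mice. In 27 libraries neither the striatal nor the choroid plexus sum reached 1000 TPM. They were 6 WT vehicle, 5 WT IMN, 6 WT FLX, 3 Brd1+/- vehicle, 3 Brd1+/- IMN and 4 Brd1+/- FLX libraries. Fits without the libraries rich in striatal or choroid plexus markers use these alone. The numeric codes of vehicle mice all lie below those of mice given a drug, so that treatment and whatever the codes stand for cannot be told apart.

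The ER chaperones were the most abundant members. Calr (chr8:84841850-84846934, minus strand, GRCm38) encodes calreticulin, a calcium-binding lectin chaperone, and had the highest mean over all libraries, 338.6 TPM. Hsp90b1 (chr10:86690209-86705509, minus strand), which encodes the ER form of HSP90, followed with 266.2 TPM. Hspa5 (chr2:34771970-34777547, plus strand), which encodes BiP, the ER member of the HSP70 family that also holds the sensors inactive, had 229.6 TPM. These 3 genes ranked 281, 423 and 539 among all genes by mean level. The disulfide isomerase gene Pdia4 (chr6:47796141-47813430, minus strand) was far lower, at 35.8 TPM.

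Of the 4 transcription factor genes, Atf4 (chr15:80255184-80257541, plus strand) had a mean of 102.6 TPM and Xbp1 (chr11:5520659-5525893, plus strand) of 91.1 TPM. Ddit3 (chr10:127290774-127296288, plus strand), which encodes the factor CHOP, had 47.9 TPM. Atf6 (chr1:170704674-170867771, minus strand) was the lowest of the 10 members, at 23.7 TPM. The members that act in degradation or assist BiP were intermediate: Herpud1 (chr8:94386438-94395377, plus strand), a membrane component of ER-associated degradation, had 67.7 TPM and Dnajb9 (chr12:44205559-44210326, minus strand), a J-domain partner of BiP, 37.7 TPM. Hsp90b1 shares 632 exonic bases with other annotated genes and Ddit3 shares 186. Some of these genes lie on the same strand, among them a further annotated entry named Ddit3 that is not among the genes listed. Neither the use of read strand nor the handling of reads in shared bases is stated. The levels of Hsp90b1 and Ddit3 are uncertain to that extent. Pdia4 and Dnajb9 each share 14 bases with a microRNA gene, and the other 6 members share none.

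**Figure D1:**
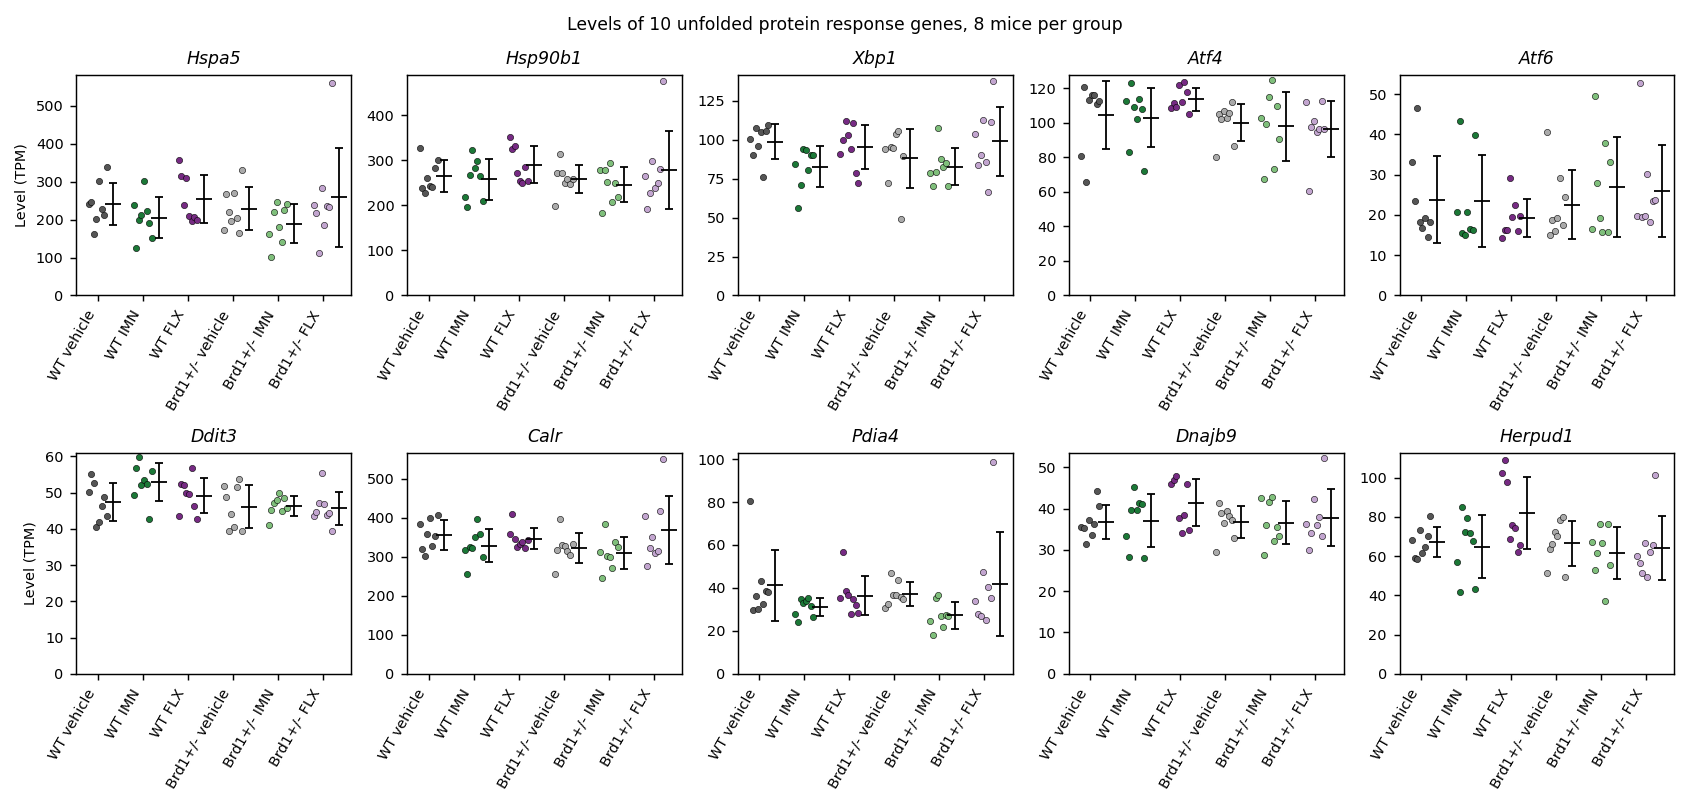
Level of each member in TPM (vertical axis, from 0) in the 6 groups (horizontal axis), with 1 point per mouse and the mean ± SD of 8 mice beside the points. The ranges of the groups overlap, and single libraries stand far above the rest for Hspa5, Hsp90b1 and Pdia4 in Brd1+/- FLX mice, at 559.8, 476.3 and 98.9 TPM.

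The promoters of 3 chaperone members carry the ER stress element, the sequence through which ATF6 and its partners raise chaperone genes, and they are shown because correlations of these genes between libraries follow below. RefSeq promoter windows of GRCm38.p6, from 250 bases before to 50 bases after a gene's start, were found for 9 of 10 members and not for Atf6. The element, spelled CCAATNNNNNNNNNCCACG and searched on both strands, occurred in 39 of 32851 windows (0.119%). Among them were the windows of Hspa5, Hsp90b1 and Calr, and of 6 of 49 other pathway genes, namely Canx, Creld2, Derl3, Dnajc3, Pdia6 and Syvn1. A second form, ATTGGNCCACG, occurred in 12 windows (0.0365%), with Herpud1 among them. The 250 bases before the start are shown for these 4 members, 5′ to 3′ on the gene's strand, with the matched elements in capitals.
Hspa5, chr2:34771840-34772089, plus strand: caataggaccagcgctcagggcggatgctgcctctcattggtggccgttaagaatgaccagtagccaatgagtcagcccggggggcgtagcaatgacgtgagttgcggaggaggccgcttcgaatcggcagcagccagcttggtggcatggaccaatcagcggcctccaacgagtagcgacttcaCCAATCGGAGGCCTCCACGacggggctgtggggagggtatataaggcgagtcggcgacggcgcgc
Hsp90b1, chr10:86705445-86705694, minus strand: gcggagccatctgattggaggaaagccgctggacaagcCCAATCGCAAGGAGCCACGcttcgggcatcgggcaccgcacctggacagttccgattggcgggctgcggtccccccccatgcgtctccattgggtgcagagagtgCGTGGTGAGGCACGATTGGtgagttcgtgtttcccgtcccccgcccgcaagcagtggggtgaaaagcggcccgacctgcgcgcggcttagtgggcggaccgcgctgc
Calr, chr8:84846932-84847181, minus strand: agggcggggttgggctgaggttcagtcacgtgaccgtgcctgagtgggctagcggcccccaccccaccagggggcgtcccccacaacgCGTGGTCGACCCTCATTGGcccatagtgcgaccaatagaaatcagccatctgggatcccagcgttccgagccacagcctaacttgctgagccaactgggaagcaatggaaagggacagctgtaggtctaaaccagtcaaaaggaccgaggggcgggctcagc
Herpud1, chr8:94386179-94386428, plus strand: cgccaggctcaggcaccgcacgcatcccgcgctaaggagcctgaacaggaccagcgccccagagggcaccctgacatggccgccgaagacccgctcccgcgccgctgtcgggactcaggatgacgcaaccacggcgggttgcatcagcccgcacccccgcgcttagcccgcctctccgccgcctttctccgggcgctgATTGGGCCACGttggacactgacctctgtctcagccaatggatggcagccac

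The matched element of Hspa5 begins 65 bases before the start. Starts here are those of RefSeq and can differ from the gene coordinates given above. The printed windows of Hspa5, Hsp90b1 and Calr reach into those coordinates, and the Hspa5 element lies within them. Hsp90b1 has 2 matches in opposite orientations, which begin 212 and 107 bases before the start, and that of Calr lies in reverse orientation at 162 bases. The second form begins 52 bases before the start of Herpud1. The elements TGACGTGG and TGACGTCA, which occurred in 222 (0.676%) and 588 (1.79%) of all windows, matched 0 of the 9 member windows. A match is a description of the sequence, and the absence of one says only that these letters are not in the window.

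The members differed in how much they varied between mice of 1 group. Ddit3 was the steadiest, with a within-group SD of 0.15 on the log2 scale and levels from 39.3 to 59.9 TPM over all 48 libraries. The SD was 0.20 for Calr, 0.21 for Dnajb9, 0.25 for both Hsp90b1 and Atf4, 0.27 for Xbp1, 0.31 for Herpud1 and 0.39 for Pdia4. Hspa5 (0.43) and Atf6 (0.53) varied most. The median over the 19222 genes with a mean of at least 1 TPM was 0.38, so Hspa5, Pdia4 and Atf6 varied more than the typical gene and the other 7 members less. Hspa5 ran from 100.1 TPM in a Brd1+/- IMN mouse to 559.8 TPM in a Brd1+/- FLX mouse, a ratio of 5.59, and Pdia4 had a ratio of 5.496 between the same 2 mice.

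None of the 10 members differed between groups at an adjusted p under 0.05 in any of 11 comparisons. The comparisons were tested with limma on log2(TPM + 0.1) across all genes with Benjamini-Hochberg adjustment, and differences below are on that scale. They asked how Brd1+/- mice differed from WT mice under each treatment, how each drug differed from vehicle and from the other drug within each genotype, and whether a drug effect differed between genotypes. Comparisons that share a vehicle or drug group share those libraries. At an unadjusted p under 0.01, the threshold counted beside it, 1 member passed in 1 comparison of these main fits.

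Between genotypes under vehicle, 0 of 10 members passed either threshold, while 0.708% of 24279 genes passed the adjusted and 2.73% the unadjusted one. The member differences ran from -0.19 for Xbp1 to 0.00 for Dnajb9, with 9 of 10 below 0 and a median of -0.04 against 0.03 over all genes tested. The widest interval was that of Atf6, -0.04 with a 95% interval from -0.57 to 0.48, and the narrowest that of Dnajb9, from -0.18 to 0.18. In the same comparison all 6 oligodendrocyte markers lay above 0, with a median difference of 1.51. Of 8 immediate-early genes, with Egr1 and Npas4 among them, 1 lay above 0, and their median difference was -0.91. At an unadjusted limma p under 0.01, 4 of these 8 genes were lower. With the striatal, oligodendrocyte and choroid plexus scores as covariates, 0 of 10 members passed the adjusted threshold in each of the 11 comparisons.

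Between genotypes under IMN, 0 of 10 members passed either threshold, against 0.017% and 0.615% of 23581 genes. Ddit3 came closest. It ran from 42.7 to 59.9 TPM with a median of 52.9 TPM in WT IMN mice and from 41.1 to 49.8 TPM with a median of 46.5 TPM in Brd1+/- IMN mice. The 2 groups overlapped, with the WT mice reaching higher. The difference was -0.19 ± 0.07 (SE), with an adjusted p of 1.000 by limma.

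Between genotypes under FLX, 0 of 10 members passed either threshold, against 1.54% and 6.77% of 23635 genes. Atf4 ran from 105.5 to 123.6 TPM with a median of 111.9 TPM in WT FLX mice, and from 60.4 to 112.8 TPM with a median of 97.3 TPM in Brd1+/- FLX mice. Its difference was -0.26 ± 0.10 (SE; limma, adjusted p = 0.215). The lowest Atf4 value came from the Brd1+/- FLX library with the highest striatal sum of its group, 6819 TPM. In this comparison Slc17a6, a marker of thalamic and hypothalamic glutamatergic neurons, differed by -2.55 at an unadjusted p under 0.01. The Atf4 difference was -0.19 in a fit with marker scores, -0.15 without the libraries rich in striatal or choroid plexus markers, and -0.16 without Brd1+/- FLX replicate 2, the library with that lowest value, alone. Herpud1 ran from 62.1 to 109.1 TPM with a median of 75.1 TPM in WT FLX mice and from 49.2 to 101.3 TPM with a median of 61.1 TPM in Brd1+/- FLX mice, a difference of -0.36 ± 0.15 (SE; limma, adjusted p = 0.239). The Herpud1 difference was -0.42 in the fit with marker scores (limma, unadjusted p = 0.00343, adjusted p = 0.166) and -0.39 without the marker-rich libraries. The groups overlapped for both genes, and the difference of each stayed below 0 in all 12 alternative fits, without passing the adjusted threshold in any.

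IMN against vehicle in WT mice gave 0 of 10 members at either threshold, against 0.0% and 0.799% of 23644 genes. Xbp1 ran from 76.4 to 109.3 TPM with a median of 102.8 TPM in WT vehicle mice and from 56.1 to 94.4 TPM with a median of 87.2 TPM in WT IMN mice. The groups overlapped, with the vehicle mice reaching higher. The difference was -0.27 ± 0.11 (SE; limma, adjusted p = 0.970), and -0.17 without the marker-rich libraries. Hspa5 had a difference of -0.24, with an interval from -0.61 to 0.12, and Pdia4 one of -0.35, from -0.71 to 0.01. Here 0 of 8 immediate-early genes lay above 0, with a median difference of -1.05, and 5 were lower at an unadjusted limma p under 0.01.

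IMN against vehicle in Brd1+/- mice was the comparison with the lowest member p. Pdia4 ran from 30.5 to 47.0 TPM with a median of 36.2 TPM in Brd1+/- vehicle mice and from 17.99 to 36.6 TPM with a median of 27.04 TPM in Brd1+/- IMN mice. The highest IMN values, 36.6 and 35.2 TPM, came from the 2 IMN libraries with choroid plexus sums over 1000 TPM, and overlapped with the vehicle group. The difference was -0.47 ± 0.14 (SE), with an interval from -0.75 to -0.18 and an adjusted p of 0.186 by limma. It thus passed the unadjusted threshold alone, as 1 of 10 members, against 3.12% of 24225 genes, while 0 of 10 members and 0.776% of genes passed the adjusted one. Leaving out each of the 16 libraries in turn gave differences from -0.53 to -0.39 and adjusted p-values from 0.0790 to 0.389. Hspa5 had a difference of -0.29 in the same comparison, with an interval from -0.69 to 0.11. All 6 oligodendrocyte markers lay below 0 here, with a median difference of -1.03. With the striatal, oligodendrocyte and choroid plexus scores as covariates the Pdia4 difference was -0.39 (limma, adjusted p = 0.518). Without the marker-rich libraries, which left 3 mice in each group, it was -0.41 (limma, unadjusted p = 0.00945, adjusted p = 0.579). The part of the oligodendrocyte markers alone was not tested.

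FLX against vehicle gave 0 of 10 members in either genotype. In WT mice 0.335% of 23557 genes passed the adjusted and 6.31% the unadjusted threshold, and in Brd1+/- mice 0.731% and 2.48% of 24336 genes. Herpud1 ran from 58.5 to 80.4 TPM with a median of 66.6 TPM in WT vehicle mice. Against the WT FLX values given above, the groups overlapped and 3 WT FLX mice, at 98.0, 102.2 and 109.1 TPM, exceeded every vehicle mouse. The difference was 0.27 ± 0.12 (SE; limma, adjusted p = 0.275). It was -0.04 in a fit with a term for code range, separate for vehicle and drug mice. That fit sets vehicle mice with codes under 130 against FLX mice with codes under 400, and adjusts nothing between treatments. It therefore cannot separate treatment from the codes. In Brd1+/- mice the Herpud1 difference was -0.07, with an interval from -0.36 to 0.23. Hspa5 differed by 0.07 in WT and 0.08 in Brd1+/- mice, with intervals from -0.27 to 0.41 and from -0.43 to 0.59.

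FLX against IMN gave 0 of 10 members in either genotype. In WT mice 0.0% of 23501 genes passed the adjusted and 0.719% the unadjusted threshold, and in Brd1+/- mice 0.0% and 0.459% of 23724 genes. In WT mice 8 of 10 members lay above 0, with a median of 0.17 against 0.05 over all genes, and Herpud1 had the largest difference, 0.35 ± 0.17 (SE; limma, adjusted p = 0.858). That difference was 0.19 in the fit with marker scores and 0.06 without the marker-rich libraries. In Brd1+/- mice 7 of 10 lay above 0, with a median of 0.10 against -0.01 over all genes. Pdia4 ran from 24.9 to 98.9 TPM with a median of 34.4 TPM in Brd1+/- FLX mice, which overlapped with the IMN values above. The difference was 0.51 ± 0.24 (SE; limma, adjusted p = 1.000), and 0.31 without Brd1+/- FLX replicate 8, the library at 98.9 TPM. It was 0.43 in the fit with marker scores (limma, unadjusted p = 0.00261, adjusted p = 0.815) and 0.47 without the marker-rich libraries.

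The effect of a drug did not differ detectably between genotypes for any member. For IMN, 0 of 10 members passed, against 0.536% and 2.7% of 26673 genes, and for FLX 0 of 10, against 1.71% and 6.55% of 26657 genes. The largest interaction was that of Atf6 under FLX, 0.42 with an interval from -0.25 to 1.09, followed by that of Herpud1 under FLX, -0.33 with an interval from -0.72 to 0.05. The intervals of Hspa5 reached from -0.58 to 0.49 for IMN and from -0.59 to 0.62 for FLX, which leaves sizeable differences between genotypes within the error.

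**Figure D2:**
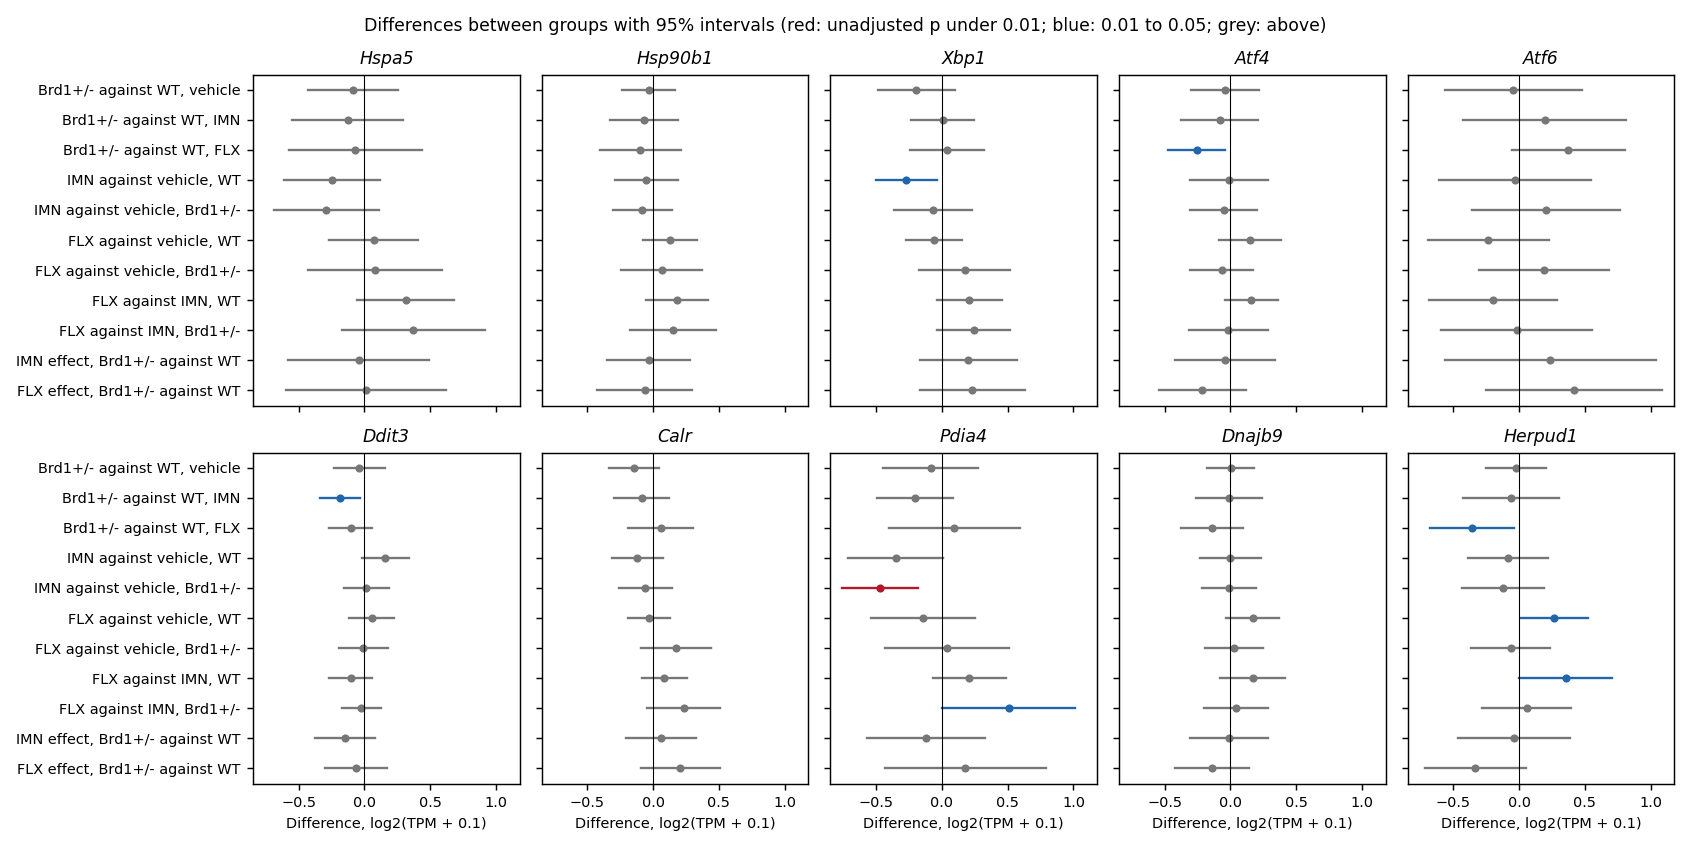
Difference between groups of each member, in log2(TPM + 0.1) units on the horizontal axis, for the 11 comparisons on the vertical axis, with 95% intervals from limma. Pdia4 in IMN against vehicle Brd1+/- mice (-0.47, from -0.75 to -0.18) is the difference coloured for an unadjusted p under 0.01, and most other intervals cross 0.

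The members did differ from library to library in a shared way. Correlations between libraries were computed on log2(TPM + 0.1) after subtraction of each group's mean, so that differences between groups do not enter. The 45 pairs of members were each tested over 48 libraries by permuting values within groups, with 100000 draws, two-sided, and with Benjamini-Hochberg adjustment over the 45 pairs. The points share library-wide properties, among them the tissue makeup of each punch and the common total of TPM. At an adjusted permutation p under 0.05, 33 of 45 pairs were correlated, 26 positively and 7 negatively. After median-ratio scaling between libraries this count was 21, of which 18 were positive. The share of called pairs over all genes was not computed, here or for the later counts of pairs. These counts therefore describe the members and do not set them apart from other genes.

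The chaperone genes varied together. Hsp90b1 had a Pearson r of 0.80 with Calr (Spearman rho = 0.72), of 0.78 with Pdia4 (rho = 0.72) and of 0.65 with Hspa5 (rho = 0.56), each with an adjusted permutation p of 0.00018 or lower. Hspa5 had an r of 0.69 with Calr (rho = 0.64) and of 0.64 with Pdia4 (rho = 0.62), and Calr one of 0.71 with Pdia4 (rho = 0.62). Without the 2 libraries farthest from the median of the first gene, a Brd1+/- FLX and a Brd1+/- IMN mouse, r was 0.71 for Hsp90b1 and Calr, 0.67 for Hsp90b1 and Pdia4, and 0.50 for Hspa5 and Hsp90b1. The highest member correlation was that of Hsp90b1 with Dnajb9, the BiP partner (r = 0.85, rho = 0.83, adjusted permutation p = 4.5e-05), and Dnajb9 had an r of 0.75 with Herpud1 (rho = 0.76). That permutation p is the smallest the draws can give, 1e-05, after adjustment.

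The 4 transcription factor genes did not share this pattern to the same extent. Xbp1 had r from 0.33 to 0.46 with each of the 6 chaperone and degradation members. Ddit3 was correlated at the adjusted threshold with Calr alone, negatively (r = -0.39, rho = -0.40, adjusted permutation p = 0.0121). After median-ratio scaling that r was -0.31 (adjusted permutation p = 0.0714), and Ddit3 instead had an r of 0.62 with Atf6 (adjusted permutation p = 0.000112). Atf4 had an r of 0.58 with Dnajb9 and of 0.50 with Herpud1, but of 0.18 with Pdia4. Atf6 was negatively correlated with 6 members, with r of -0.82 with Atf4 (rho = -0.64), -0.73 with Dnajb9 (rho = -0.71), -0.59 with Herpud1 and -0.58 with Hsp90b1 among them, while its r of 0.22 with Ddit3, -0.08 with Xbp1 and -0.22 with Pdia4 did not pass (adjusted permutation p = 0.18, 0.652 and 0.191). After median-ratio scaling its r with Atf4 was -0.68.

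**Figure D3:**
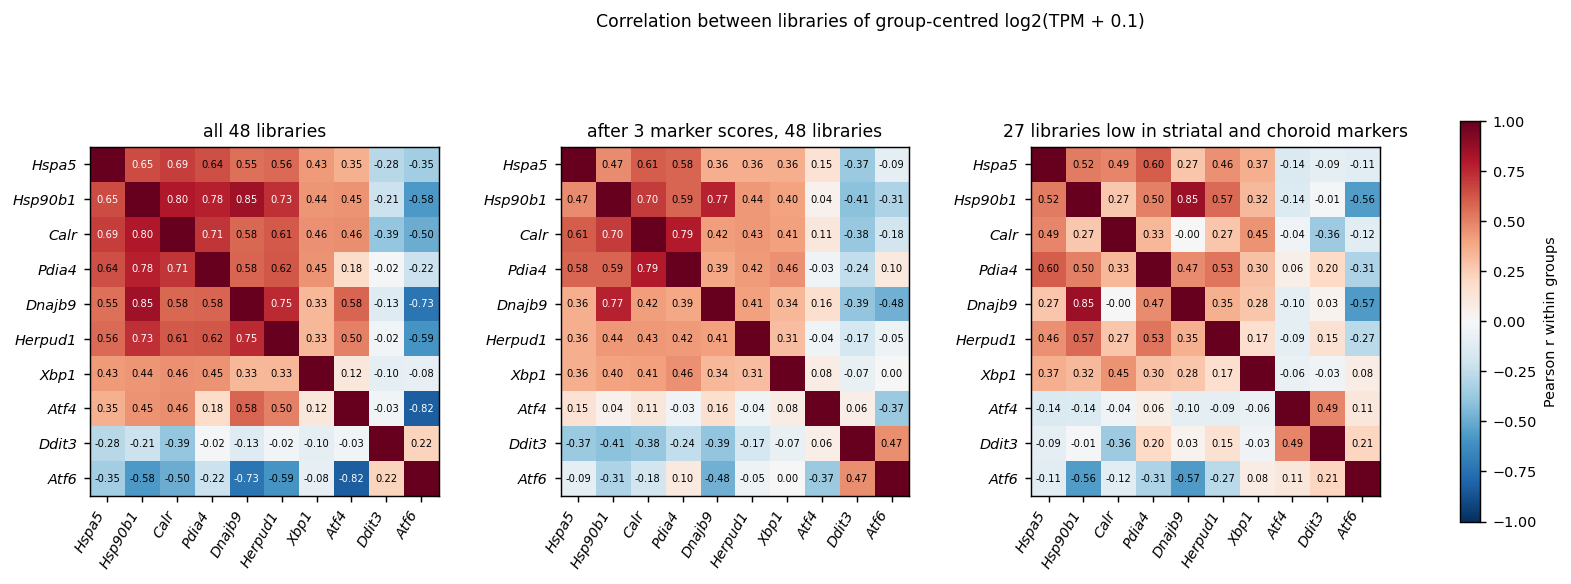
Pearson r between libraries for each pair of members (colour and number), from group-centred log2(TPM + 0.1), in all 48 libraries (left), after regression on the striatal, oligodendrocyte and choroid plexus marker scores (middle) and in the 27 libraries in which neither the striatal nor the choroid plexus sum reached 1000 TPM (right). The block of chaperone and degradation genes is positive in each panel apart from Calr and Dnajb9 on the right (-0.0013), and the negative correlation of Atf4 and Atf6 (-0.82) is absent from the right panel (0.11).

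Atf6 and Atf4 followed the striatal marker level in opposite directions. Over the 35 libraries with a striatal sum under 1000 TPM, Atf6 ran from 14.4 to 27.9 TPM with a median of 18.25 TPM. Over the 13 libraries at or above it, Atf6 ran from 24.5 to 52.8 TPM with a median of 37.9 TPM. Atf4 ran from 96.6 to 124.8 TPM (median 110.7 TPM) in the former and from 60.4 to 121.8 TPM (median 80.7 TPM) in the latter. The 2 sets barely overlapped for Atf6, and for Atf4 they overlapped through a WT FLX library at 121.8 TPM and a Brd1+/- vehicle library at 105.7 TPM. As a description over 48 libraries, the striatal score had an r of 0.84 with Atf6 and -0.81 with Atf4, and Slc17a6, which marks glutamatergic neurons of thalamus and hypothalamus, one of -0.91 with Atf6 and 0.83 with Atf4. In bulk tissue, a change in the share of cells of a type and a change in the RNA of each cell cannot be told apart. The pooled correlation of Atf4 with Atf6 rests on the striatum-rich libraries: within the 13 of them r was -0.81 (not group-centred), within the other 35 it was -0.08.

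Most other members had lower medians where the striatal sum was high. Medians in the 13 striatum-rich against the other 35 libraries were 185.4 and 225.0 TPM for Hspa5, 218.6 and 271.9 TPM for Hsp90b1, 300.8 and 338.9 TPM for Calr, 32.25 and 39.5 TPM for Dnajb9, and 52.9 and 70.4 TPM for Herpud1. Ddit3 went slightly the other way, with 49.9 and 47.2 TPM, and Xbp1 had 89.6 and 93.7 TPM. The ranges of the 2 sets overlapped for each of these 7 genes. After median-ratio scaling the r with the striatal score moved from -0.60 to -0.25 for Calr, from -0.61 to -0.30 for Dnajb9, from -0.56 to -0.30 for Hsp90b1, from -0.13 to 0.17 for Xbp1 and from 0.15 to 0.52 for Ddit3.

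Pdia4 was high where the choroid plexus level was highest. In the 4 libraries with a choroid plexus sum of at least 8000 TPM it was listed at 47.0, 56.7, 80.7 and 98.9 TPM. In the 39 libraries under 1000 TPM it ran from 17.99 to 47.6 TPM with a median of 32.4 TPM. Only 1 of those 39, at 47.6 TPM, exceeded the lowest of the 4. The 5 libraries between 1000 and 8000 TPM had Pdia4 at 27.8, 35.1, 35.2, 36.5 and 36.6 TPM, near that median. The score of the choroid plexus list had an r of 0.77 with Pdia4 (rho = 0.57), 0.57 with both Calr and Hsp90b1, and 0.40 with Hspa5, and a list of 4 meningeal fibroblast markers had an r of 0.71 with Pdia4 and 0.67 with Calr. All 7 choroid plexus markers were detected in at least 1 library, and Folr1 was listed at 0 in 29 of 48 and Ttr in 3. The Brd1+/- FLX mouse with the highest Hspa5, Hsp90b1, Calr, Xbp1, Pdia4 and Dnajb9 of all mice had a choroid plexus sum of 29060 TPM. The WT vehicle mouse with a sum of 29710 TPM had Pdia4 at 80.7 TPM but Hspa5 at 241.4 TPM, close to the WT vehicle mean of 241.6 TPM.

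**Figure D4:**
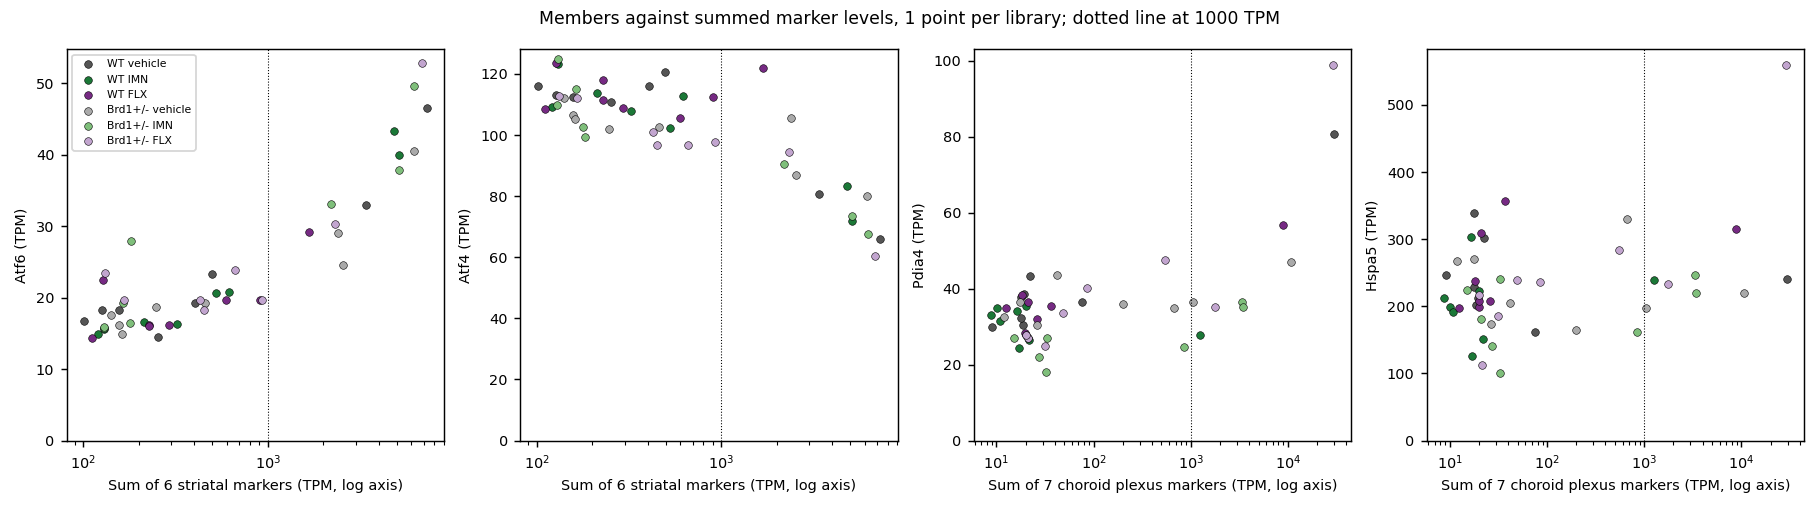
Level of Atf6, Atf4, Pdia4 and Hspa5 in TPM (vertical axes, from 0) against the summed TPM of striatal or choroid plexus markers (horizontal log axes), with 1 point per library coloured by group and a dotted line at 1000 TPM. Atf6 reaches 52.8 TPM and Atf4 drops to 60.4 TPM in libraries towards the right of the striatal axis, with a WT FLX library at 121.8 TPM of Atf4 as an exception, and Pdia4 is highest (80.7 and 98.9 TPM) in the 2 libraries with the largest choroid plexus sums.

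The marker scores accounted for unequal shares of the members' variation. Regression on the striatal, oligodendrocyte and choroid plexus scores took up 75.9% of the within-group variance of Atf6, 74.8% of that of Pdia4 and 68.6% of that of Atf4. It took up 9.1% for Xbp1, 25.8% for Ddit3 and 26.2% for Hspa5, against a median of 37.4% over 19222 genes. The remaining 4 members lay between 56.6% and 58.7%. With the scores removed, 27 of 45 pairs were correlated at the adjusted threshold, 21 positively. Calr and Pdia4 then had an r of 0.79, Hsp90b1 and Dnajb9 0.77, Hsp90b1 and Calr 0.70, and Hspa5 and Calr 0.61, each with an adjusted permutation p of 0.00034 or lower. Atf4 and Atf6 had an r of -0.37 (adjusted permutation p = 0.0328). In the 27 libraries low in both marker sums, 1 of 45 pairs passed, Hsp90b1 and Dnajb9 (r = 0.85, rho = 0.87, adjusted permutation p = 0.00045). There Hspa5 and Pdia4 had an r of 0.60 and Hspa5 and Hsp90b1 one of 0.52, each with an adjusted permutation p of 0.0939. Fewer libraries also make each of these tests less sensitive.

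The genes most like Hspa5 between libraries were largely ER folding genes. Among 19221 other genes with a mean of at least 1 TPM, the 10 with the highest r were Pdia3 (0.71), Calr (0.69), Pdia6 (0.68), Hsp90b1, Manf, Creld2, Dnajc3 (each 0.65), Ccdc157, Pdia4 and Pnrc2 (each 0.64). Pdia3 and Pdia6 encode disulfide isomerases of the ER, and Dnajc3 a partner of BiP. Of the 10, 8 belonged to the members or to the list of ER chaperones and folding genes. These made up 9 and 18 of the 19221 genes compared. With the marker scores removed, 5 of the top 10 belonged to them, and the first was Hsp90ab1 (0.64), which encodes a cytosolic HSP90.

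Other members had partners of different kinds. Hsp90b1 was closest to Pdia3 (r = 0.96), Calr to Pdia6 (0.91), Pdia4 to Dnajc3 (0.92), and Xbp1 to Creld2 (0.57) and Manf (0.54), both ER stress-induced secretory genes. Dnajb9 was closest to Tgoln1 (0.89), Rab21 (0.88) and Vma21 (0.88), and Herpud1 to Psd2 (0.82) and Bcap31 (0.82). None of the 5 genes closest to Atf4, Atf6, Ddit3 or Herpud1 was in a pathway list. For the transcription factors they were Clip2 (0.94), Ccdc136, Acot7, Ckap4 and Igdcc4 for Atf4, Klf9 (0.96), Cap1, Kremen1, Gm29808 and Rgs7bp for Atf6, and Kcng4 (0.71), Stmn4, March2, Taf13 and Rtkn for Ddit3. With the marker scores removed, the gene closest to Herpud1 was P4hb (0.68), a disulfide isomerase gene of the folding list, the 5 closest to Pdia4 (Calr, Dnajc3, Dnajb11, Sdf2l1 and Creld2) were all members or folding genes, and none of the 5 closest to Atf4, Atf6 or Ddit3 was in a list. The median r with the 18 other ER chaperone and folding genes that could be compared was 0.51 for Hspa5, 0.64 for Hsp90b1 and Calr, 0.56 for Pdia4, 0.65 for Dnajb9, 0.61 for Herpud1, 0.49 for Atf4, 0.23 for Xbp1, -0.12 for Ddit3 and -0.57 for Atf6. Over all genes these medians were, in the same order, 0.14, 0.20, 0.19, 0.08, 0.22, 0.20, 0.24, 0.04, -0.09 and -0.26.

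The wider pathway was followed in 4 further lists of 61 genes in all. No list of sensors and activators (9 genes) or of ER chaperones and folding genes (19 genes) had a gene called at an adjusted p under 0.05 in any comparison. The list of ER-associated degradation and translocation genes (15 genes) had 1 call, and that of PERK and ATF4 targets (18 genes) had 1 call.

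Ube2j1, a ubiquitin-conjugating enzyme of ER-associated degradation, was lower in Brd1+/- FLX than in WT FLX mice. It ran from 71.4 to 97.9 TPM in WT FLX mice (mean 83.5 TPM ± 10.1 SD, n = 8) and from 46.7 to 71.9 TPM in Brd1+/- FLX mice (mean 63.6 TPM ± 8.18 SD, n = 8). The groups met at about 71 to 72 TPM. The difference was -0.40 ± 0.10 (SE; limma, adjusted p = 0.0467), as 1 of 15 list genes against 1.54% of all genes. It passed in 3 of 12 alternative fits, whose adjusted p-values ran from 0.0436 to 0.456. Those 3 changed only the pseudocount or the level filter. The difference was -0.31 in the fit with marker scores (limma, adjusted p = 0.190) and -0.31 without the marker-rich libraries (limma, adjusted p = 0.456). After median-ratio scaling the difference was -0.32 (limma, adjusted p = 0.0568). With each of the 16 libraries left out in turn it stayed between -0.43 and -0.33 and passed in 5 of 16 fits (limma, adjusted p-values from 0.0370 to 0.107), those without WT FLX replicate 6 or 8 or Brd1+/- FLX replicate 1, 4 or 6.

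Ddit4, a stress-induced inhibitor of mTOR signalling, was higher in WT FLX than in WT vehicle mice. It ran from 52.6 to 63.3 TPM in WT vehicle mice (mean 57.0 TPM ± 3.67 SD, n = 8) and from 65.6 to 128.0 TPM in WT FLX mice (mean 93.6 TPM ± 20.95 SD, n = 8), so that every FLX mouse lay above every vehicle mouse. The difference was 0.69 ± 0.12 (SE; limma, adjusted p = 0.0251), as 1 of 18 list genes against 0.335% of all genes. It passed in 7 of 12 alternative fits with adjusted p-values from 0.0259 to 0.967, the latter from the fit with the code range term described for Herpud1. The difference stayed between 0.62 and 0.69 in all 12. With each of the 16 libraries left out in turn it passed in 10 of 16 fits (limma, adjusted p-values from 0.0120 to 0.0712), and not without WT FLX replicate 1, 2, 4 or 7 or WT vehicle replicate 2 or 8. In the same comparison all 6 oligodendrocyte markers lay above 0 (median 1.21) and all 7 immediate-early genes tested lay below 0 (median -1.03), of which Egr1 and Npas4 were called. With the striatal, oligodendrocyte and choroid plexus scores as covariates the Ddit4 difference was 0.68 (limma, adjusted p = 0.626), and the part of the immediate-early genes was not tested. WT IMN mice ran from 74.7 to 144.8 TPM, also above every vehicle mouse, with a difference of 0.74 ± 0.14 (SE; limma, adjusted p = 0.461). In Brd1+/- mice the vehicle group ran from 53.4 to 114.3 TPM, and the differences were 0.41 for FLX (limma, adjusted p = 0.702) and 0.32 for IMN (adjusted p = 0.599). The difference between genotypes in the drug effect on Ddit4 was -0.27 for FLX (limma, adjusted p = 0.590) and -0.42 for IMN (adjusted p = 0.587).

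At the unadjusted threshold of 0.01, between 0 and 3 of the 61 other pathway genes passed in a comparison, where between 0.459% and 6.77% of all genes did. The count of 3 was reached between genotypes under FLX, where 6.77% of genes passed, and for IMN against vehicle in WT mice, where 0.799% did. At that threshold Creld2 (-0.41) and the degradation ligase gene Syvn1 (-0.23) were lower in WT IMN than in WT vehicle mice (both with limma, adjusted p = 0.970). Syvn1 was also lower in Brd1+/- than in WT vehicle mice (-0.22, limma, adjusted p = 0.169), where Psat1, a serine synthesis gene, was higher (0.60, limma, adjusted p = 0.326). In Brd1+/- mice IMN went with lower Sdf2l1 (-0.48) and Ppp1r15b (-0.26) (limma, adjusted p = 0.287 and adjusted p = 0.259). Sesn2 (-0.43) was lower and Stc2 (0.84) higher in Brd1+/- than in WT FLX mice (limma, adjusted p = 0.106 and adjusted p = 0.118), and Mthfd2 (0.68) was higher in WT FLX than in WT vehicle mice (limma, adjusted p = 0.112). The IMN effect on Ppp1r15a differed between genotypes by 0.88 (limma, adjusted p = 0.366). None of these passed adjustment. The medians of the ER chaperone and folding genes ran from -0.13 in the FLX interaction to 0.12 in FLX against IMN in WT mice, where the medians over all genes were -0.10 and 0.05. Those of the PERK and ATF4 targets reached -0.25 in the IMN interaction (all genes -0.03), -0.23 in the FLX interaction and 0.16 between genotypes under vehicle, where 14 of 18 lay above 0 (all genes 0.03).

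**Figure D5:**
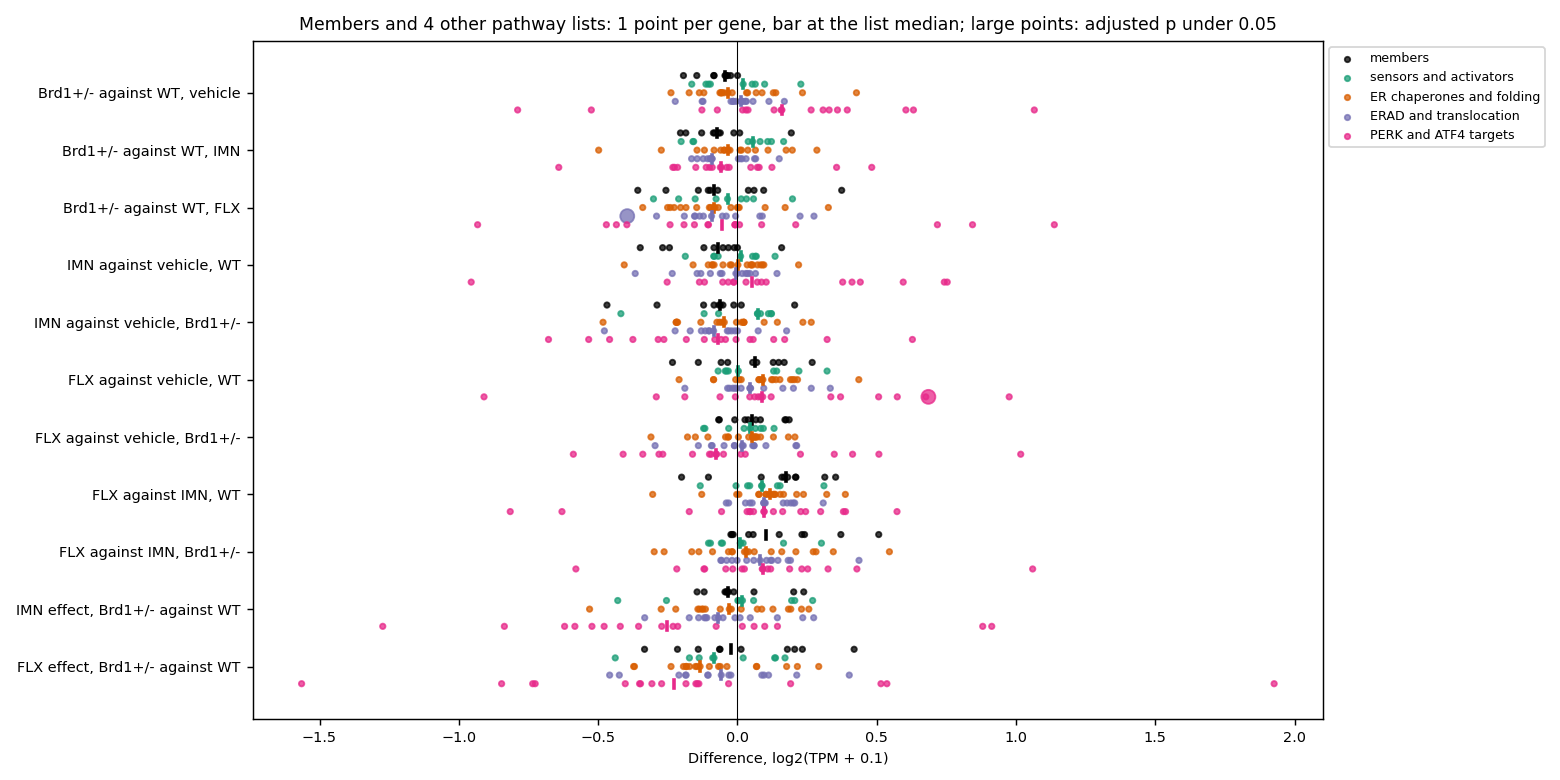
Difference of every member and every gene of the 4 other pathway lists, in log2(TPM + 0.1) units on the horizontal axis, for the 11 comparisons, with 1 point per gene coloured by list, a bar at each list's median and large points for an adjusted p under 0.05. The 2 large points are Ube2j1 in Brd1+/- against WT FLX mice (-0.40) and Ddit4 in FLX against vehicle WT mice (0.69), and the medians run from -0.25 for PERK and ATF4 targets in the IMN interaction to 0.17 for the members in FLX against IMN WT mice.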

How the data were processed

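RNA from right amygdala punches of 48 female mice (6 groups of 8, from the labels) was sequenced by the authors. The deposited values are TPM per gene for each library, which the authors made with HISAT2 2.1.0 and StringTie 1.3.4 on GRCm38, with FastQC and Trimmomatic also named in the processing notes. Use of read strand in counting is not given in the sources used here. TPM keeps no depth, so no counting intervals or floors are given. The series' general description names other brain regions, and the labels, which give amygdala, were followed. The labels mark each library as a separate mouse.

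Genes were tested with limma 3.58.1 (R 4.3.3, trended eBayes, two-sided) on log2(TPM + 0.1) where at least 8 libraries of the fit had at least 0.1 TPM, with Benjamini-Hochberg adjustment over all genes tested and calls at an adjusted p under 0.05. A fold change on this scale understates that of low genes. Correlations were computed in Python 3.11.15 with scipy 1.17.1. All 10 members are described. Other pathway genes are named where called at an adjusted p under 0.05, or among the 3 lowest p-values under an unadjusted 0.01, and the most alike genes are the first 10 for Hspa5 and the first 5 for other members. The members and lists were chosen with earlier results of these data known. Alternatives were other pseudocounts, filters, scalings and fits, a replicate block, a term for sample code range (separate for vehicle and drug mice) and marker covariates. For IMN against vehicle in Brd1+/- mice they included leaving out each library. Leaving out libraries rich in striatal or choroid plexus markers, removing marker scores from correlations, rescaling the marker lists and Brd1, and leaving out each library in 3 further comparisons were added after seeing the data. The fits were tested on simulated data. Protein sequences were not used here, and 1 gene of the marker lists, which enters only their summed levels and scores, is not reported here.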

Additional observations from a re-analysis of the deposited data

Results flagged for a closer look

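In 9 of 60 combinations of member and group, 1 library stood apart from the other 7 by a gap that, as a share of the group's range, exceeded Dixon's 95% critical value for 8 samples. For independent, normally distributed values chance gives about 1 in 20. The members share libraries and are correlated, so the count cannot be set directly against that rate. The Brd1+/- FLX replicate 8 library accounted for 4 of them. It had Hspa5 at 559.8 TPM (next highest 283.8 TPM), Hsp90b1 at 476.3 TPM (next 298.9 TPM), Pdia4 at 98.9 TPM (next 47.6 TPM) and Herpud1 at 101.3 TPM (next 66.8 TPM). Its choroid plexus marker sum was 29060 TPM.

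In Brd1+/- FLX replicate 2, Atf4 was lowest at 60.4 TPM (next lowest 94.5 TPM) and Atf6 highest at 52.8 TPM (next 30.3 TPM), with a striatal marker sum of 6819 TPM. WT FLX replicate 2 had Calr at 409.5 TPM (next 359.2 TPM) and Pdia4 at 56.7 TPM (next 38.4 TPM), with a choroid plexus sum of 8814 TPM. WT vehicle replicate 1 had Pdia4 at 80.7 TPM (next 43.4 TPM), with a choroid plexus sum of 29710 TPM. The part of these markers in the single high or low values was not tested.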

How the results depend on the processing

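The count of 0 members called held in all 196 counts under alternatives, and the lowest adjusted limma p of a member among them was 0.0653, for Pdia4 in IMN against vehicle Brd1+/- mice after median-ratio scaling. Of 2016 single differences, 31 lost a call, all of them for Ube2j1 in Brd1+/- against WT FLX mice or Ddit4 in FLX against vehicle WT mice. With the replicate block, 0 members were called, Pdia4 had -0.47 (limma, adjusted p = 0.184), and the calls of Ube2j1 (adjusted p = 0.111) and Ddit4 (adjusted p = 0.0667) were lost. Same-numbered libraries had correlations from -0.41 to 0.65, and at most 5 of 8 pairs exceeded 0.1. Differently numbered libraries were not compared, so these values do not show whether the numbers pair mice. The median difference of all genes in the FLX interaction, -0.10, was -0.02 after median-ratio scaling.

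The 33 called pairs of members became 21 after median-ratio scaling and 1 without marker-rich libraries, where 27 libraries remain. Members and marker lists with an r of at least 0.6 in size numbered 10, and 6 after median-ratio scaling. Of the pair correlations under the 3 alternatives, 75 kept direction and side of the threshold, 47 lost the call, 5 gained it and 8 called ones turned sign. With marker scores removed, r of Atf4 and Herpud1 was -0.0393. Without marker-rich libraries, r of Atf4 was -0.14 with Hspa5, -0.14 with Hsp90b1, 0.11 with Atf6, -0.0373 with Calr, -0.10 with Dnajb9 and -0.0935 with Herpud1, and that of Calr and Dnajb9 was -0.0013. The cause was not tested.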
